A study of Homo sapiens with 9 samples.

Results

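The 9 genes described here are classical targets of NRF2, the transcription factor encoded by NFE2L2: HMOX1, NQO1, GCLM, GCLC, SRXN1, TXNRD1, OSGIN1, PIR and ME1. They were selected by symbol, and all 9 were found among the 27730 gene symbols of the count table. In unstressed cells NRF2 is held by KEAP1, an adaptor of the CUL3 ubiquitin ligase, and is degraded. Electrophiles and oxidants that modify KEAP1 release it, and NRF2 with a small MAF partner then binds antioxidant response elements in genes for glutathione synthesis, thioredoxin reduction, NADPH supply, quinone reduction and haem breakdown. BACH1, which binds haem, occupies the same elements as a repressor and acts strongly on HMOX1.

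RNA was sequenced from HUES9, a single line of human embryonic stem cells, in 3 groups of 3 libraries from 3 independent experiments. The first group was collected at day 13 of differentiation in medium with 10 µM AA147, which the series describes as an activator of the ATF6 arm of the unfolded protein response. The second was collected at day 13 with 10 µM RP22, described as an inactive analog of AA147. The third was collected at day 1 with no agent. All cells were kept on mitomycin-treated mouse feeder cells at passages 44 to 46. Differentiation went through spun embryoid bodies, formed after a Stemolecule pretreatment and later plated on Matrigel. Both the maintenance and the differentiation medium contained 2-mercaptoethanol, a reducing agent. The libraries include no solvent control, and the count table does not separate mouse reads of the feeder cells.

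Libraries held 9223039 to 10118267 reads, and each member had between 13 and 2875 reads in a library. HSPA5, the chaperone BiP and a standard ATF6 target, had 1579, 1872 and 1861 CPM (reads scaled to library size over the 9 libraries) with AA147, against 944, 793 and 840.2 CPM with RP22. Its log2 fold change was 0.96 ± 0.0995 (SE), with an adjusted p of 0.00012 in edgeR's quasi-likelihood test. Among the RP22 libraries replicate 1 differed most: its chi-square over genes, divided by the degrees of freedom, came to 26.9 and 28.0 with the other two, and the remaining pairs within a group gave 2.39 to 13.8. Summed over 7 markers of mesenchyme and smooth muscle, the level was 51330 to 55570 CPM with AA147 and 8746 to 19630 CPM with RP22. At day 1 it was 401 to 429.8 CPM. Most of the AA147 sum came from FN1, COL1A1 and COL3A1, at means of 23100, 13620 and 12790 CPM. RP22 replicate 1 gave the top of the RP22 range, with COL3A1 at 8170 CPM and COL1A1 at 5680 CPM. The summed level of 6 pluripotency markers was 30.2 to 43.7 CPM with AA147, where NANOG was at 0, 268 to 529 CPM with RP22 and 5327 to 5926 CPM at day 1. In bulk RNA, fewer cells of a type and less RNA per cell cannot be told apart.

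The 4 promoter windows shown were picked because they hold a match to a motif of NRF2 or of its MAF partners. Their genes went in different directions. Each runs from 250 bases before to 50 bases after the annotated start of transcription, is given on the strand of the gene and was taken from RefSeq (GRCh38.p14). Capitals mark matches to the antioxidant response element core TGACNNNGC or, in OSGIN1, to the longer MAF recognition element, on either strand. The windows lie at chr6:83431002-83431301 (minus strand) for ME1, chr1:93909381-93909680 (minus strand) for GCLM, chr16:83952990-83953289 (plus strand) for OSGIN1 and chrX:15493284-15493583 (minus strand) for PIR.
ME1: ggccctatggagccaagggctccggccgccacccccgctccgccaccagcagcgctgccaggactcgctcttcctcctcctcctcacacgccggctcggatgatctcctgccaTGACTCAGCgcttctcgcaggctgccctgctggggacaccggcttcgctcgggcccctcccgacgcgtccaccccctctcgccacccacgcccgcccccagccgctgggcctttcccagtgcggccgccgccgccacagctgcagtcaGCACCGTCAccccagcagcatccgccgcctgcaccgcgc
GCLM: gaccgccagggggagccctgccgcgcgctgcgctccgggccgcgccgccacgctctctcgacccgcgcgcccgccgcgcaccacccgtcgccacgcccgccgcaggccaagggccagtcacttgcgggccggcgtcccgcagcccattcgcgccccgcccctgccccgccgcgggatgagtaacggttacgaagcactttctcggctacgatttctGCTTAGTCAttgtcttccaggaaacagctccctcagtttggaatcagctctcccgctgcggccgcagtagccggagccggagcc
OSGIN1: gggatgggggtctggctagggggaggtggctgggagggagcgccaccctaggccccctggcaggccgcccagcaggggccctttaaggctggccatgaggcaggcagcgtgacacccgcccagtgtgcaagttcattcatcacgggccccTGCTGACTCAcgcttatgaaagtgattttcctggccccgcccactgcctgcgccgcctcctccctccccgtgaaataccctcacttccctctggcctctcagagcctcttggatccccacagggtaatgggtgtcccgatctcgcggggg
PIR: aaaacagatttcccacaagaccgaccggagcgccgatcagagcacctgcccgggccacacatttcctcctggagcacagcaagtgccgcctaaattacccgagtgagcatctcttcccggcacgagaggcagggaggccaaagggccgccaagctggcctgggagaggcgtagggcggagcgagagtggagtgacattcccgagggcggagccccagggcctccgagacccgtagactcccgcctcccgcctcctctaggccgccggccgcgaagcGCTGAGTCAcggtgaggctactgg

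The core TGACNNNGC occurred in 5 of the 9 member windows, and in 13.3% of all 35116 promoter windows. These 5 windows belong to 4 of the 8 members with an entry, and HMOX1 had no entry. The windows of NQO1, GCLC and SRXN1 held neither the core nor the MAF recognition element. ME1 held it at bases -137 to -129 from the start (TGACTCAGC) and again at bases 12 to 20 on the opposite strand (TGACGGTGC). GCLM held it at bases -34 to -26 on the opposite strand (TGACTAAGC), and PIR at bases 27 to 35 on the opposite strand (TGACTCAGC). TXNRD1 had matches in both of its listed windows. OSGIN1 held the MAF recognition element at bases -100 to -91 (TGCTGACTCA), a sequence in 0.416% of all windows. No member window held the endoplasmic reticulum stress element bound by ATF6 with NF-Y, which was in 0.0769% of all windows and in that of HSPA5, or the ATF6 site TGACGTGG, which was in 0.729% of all windows. Both strands were searched, and the CCACG that ends the stress element also lies in the reverse complement of the ATF6 site. These matches are descriptions of letters in a window, and elements farther from the start lie outside it.

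The comparison of AA147 with RP22 sets the activator against its analog at the same dose and day, the only pair of compounds in the series. Of the 9 members, 6 rose with AA147 (ME1, OSGIN1, NQO1, SRXN1, TXNRD1 and GCLM), 2 fell (HMOX1 and PIR), and GCLC did not pass the test. The rises were 1.95-fold to 4.77-fold, and HMOX1 was 3.46-fold lower with AA147. Over all genes tested, 62.0% passed in either direction, 29.8% upward and 32.2% downward (adjusted p under 0.05 in the edgeR quasi-likelihood test, n = 3 each). The median log2 fold change was 1.28 over the 9 members and -0.03 over all genes tested. With scaling by library totals alone in place of TMM, the median of all genes moved to -0.49 and the share of calls that were upward moved to 18.2%, against 48.1% with TMM. The members' median was then 0.83, the same number of members rose, and 3 fell, since GCLC joined HMOX1 and PIR, where 13.3% of all genes rose and 59.7% fell. In CPM the 3 libraries of each compound did not overlap in 8 members, 6 of them higher with AA147. Of all genes tested, 70.5% did not overlap, 37.9% higher and 32.6% lower.

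**Figure D1:**
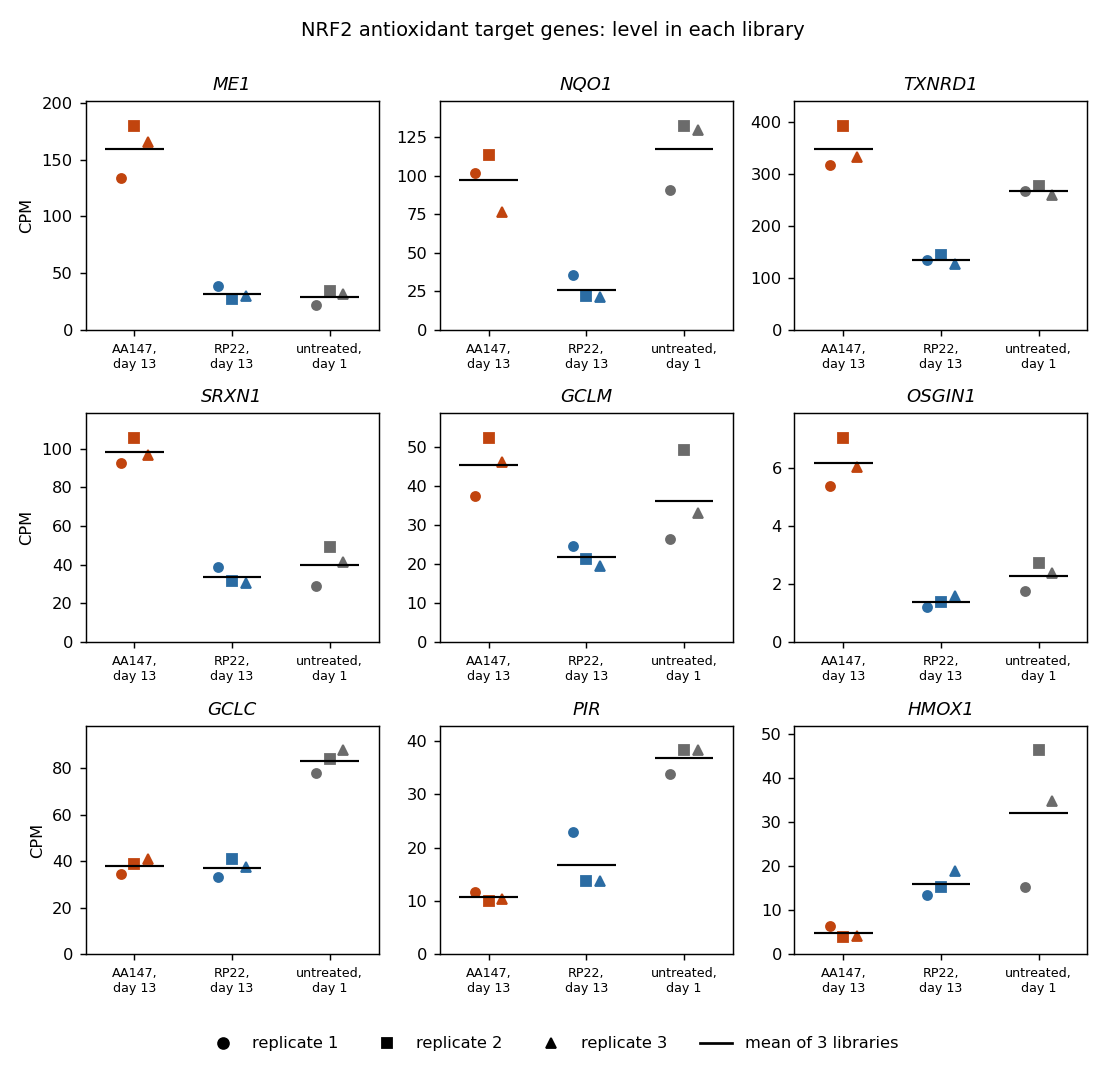
Level of each member in CPM (vertical axis, linear, from 0) in the 3 libraries of each group, with the group mean as a line; the marker shape gives the replicate number. ME1, NQO1, TXNRD1, SRXN1, GCLM and OSGIN1 were higher in every AA147 library than in every RP22 library, PIR and HMOX1 were lower in every one, and the GCLC values of both groups overlapped.

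Glutathione is made in a pair of steps, and the rate-limiting one is run by glutamate-cysteine ligase, which joins a catalytic subunit (GCLC) to a modifier subunit (GCLM) that makes it more efficient. GCLM had 37.4, 52.4 and 46.2 CPM with AA147, 24.8, 21.4 and 19.65 CPM with RP22 and 26.4, 49.4 and 33.0 CPM at day 1. All AA147 values lay above all RP22 values, and both day 13 groups were tighter than day 1. The log2 fold change of GCLM for AA147 over RP22 was 0.97 ± 0.137 (SE; adjusted p = 0.00057, edgeR quasi-likelihood test). GCLC had 34.5, 39.0 and 41.1 CPM with AA147, 33.2, 40.9 and 37.4 CPM with RP22 and 78.2, 83.8 and 87.8 CPM at day 1. In CPM the day 13 groups overlapped, and both lay well under day 1. In RPKM the AA147 values of GCLC (7.412 to 8.506) lay under its RP22 values (9.651 to 12.6) without overlap. The log2 fold change of GCLC for AA147 over RP22 was -0.04 ± 0.106 (SE), with a 95% interval of -0.29 to 0.21 and an adjusted p of 0.76, so a difference within that interval was not resolved. With library totals alone it was -0.50, with an adjusted p of 0.0054.

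The balance of both subunits can be read within each library, where the scaling between libraries drops out. The RPKM ratio of GCLM to GCLC (reads scaled to gene length and library total) was 1.35, 1.67 and 1.40 with AA147, 0.934, 0.652 and 0.652 with RP22 and 0.420, 0.733 and 0.466 at day 1. Every AA147 library had more GCLM than GCLC per length, and every other library had less. The groups AA147 and RP22 did not overlap, and the exact two-sided permutation test gave p = 0.1, the smallest value that 3 against 3 libraries allow.

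The thioredoxin system reduces peroxiredoxins and other protein disulfides. TXNRD1, the cytosolic thioredoxin reductase that feeds it from NADPH, had 317, 394 and 332.5 CPM with AA147, 136, 143 and 126 CPM with RP22 and 267, 277 and 259 CPM at day 1. In CPM its 3 groups did not overlap, with AA147 highest and RP22 lowest. In RPKM its AA147 values (65.74 to 78.25) overlapped its day 1 values (67.45 to 75.88). Its log2 fold change was 1.28 ± 0.0932 (SE; adjusted p = 2.6e-05, edgeR quasi-likelihood test) for AA147 over RP22. SRXN1, sulfiredoxin, which restores peroxiredoxins that have been oxidised too far, had 92.8, 106 and 96.7 CPM with AA147, 39.0, 31.9 and 30.5 CPM with RP22 and 29.0, 49.1 and 41.2 CPM at day 1. All AA147 values lay above all others, while RP22 and day 1 overlapped. Its log2 fold change was 1.46 ± 0.103 (SE; adjusted p = 2.2e-05, edgeR quasi-likelihood test) for AA147 over RP22.

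ME1, the cytosolic malic enzyme, makes NADPH while turning malate into pyruvate. It had 133.5, 179.9 and 166 CPM with AA147, 38.7, 26.9 and 29.4 CPM with RP22 and 22.1, 34.3 and 31.4 CPM at day 1. Its AA147 values stood far above both other groups, which overlapped. The log2 fold change for AA147 over RP22 was 2.25 ± 0.16 (SE; adjusted p = 3.5e-05, edgeR quasi-likelihood test), the highest among the members.

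NQO1, the quinone reductase that also uses NADPH, had 101.9, 113 and 76.2 CPM with AA147, 35.3, 21.7 and 21.2 CPM with RP22 and 90.6, 132.5 and 129 CPM at day 1. The AA147 and day 1 values overlapped, and the RP22 values lay under both. NQO1 rose with AA147 over RP22, at a log2 fold change of 1.82 ± 0.243 (SE; adjusted p = 0.00092, edgeR quasi-likelihood test). HMOX1, the inducible haem oxygenase that opens haem to biliverdin, iron and carbon monoxide, had 6.42, 4.0 and 4.16 CPM with AA147, 13.45, 15.4 and 19.0 CPM with RP22 and 15.25, 46.3 and 34.7 CPM at day 1. Its AA147 values were the lowest in the series, and day 1 replicate 1 lay within the RP22 range while the other two day 1 libraries lay above it. HMOX1 fell, at a log2 fold change for AA147 over RP22 of -1.79 ± 0.241 (SE; adjusted p = 0.00043, edgeR quasi-likelihood test). NQO1 and HMOX1 thus differed in direction between the same libraries. The RPKM ratio of NQO1 to HMOX1 was 9.44, 17.6 and 11.4 with AA147, 1.63, 0.876 and 0.696 with RP22 and 3.70, 1.78 and 2.32 at day 1.

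OSGIN1, oxidative stress induced growth inhibitor 1, had the fewest reads of the members over all 9 libraries, with 140 in all with AA147, where HMOX1 had 111, and 47 in all with RP22. It had 5.38, 7.03 and 6.04 CPM with AA147, 1.22, 1.37 and 1.59 CPM with RP22 and 1.77, 2.72 and 2.39 CPM at day 1. In CPM the 3 groups did not overlap, while in RPKM the RP22 values (0.687 to 0.958) overlapped those of day 1 (0.878 to 1.505). OSGIN1 rose, at a log2 fold change for AA147 over RP22 of 2.05 ± 0.25 (SE; adjusted p = 0.00027, edgeR quasi-likelihood test). PIR encodes pirin, an iron-binding nuclear protein, and had 11.8, 9.93 and 10.3 CPM with AA147, 23.0, 13.75 and 13.7 CPM with RP22 and 33.9, 38.3 and 38.3 CPM at day 1. RP22 replicate 1 lay apart from the other two RP22 values, and the groups still did not overlap. The log2 fold change for AA147 over RP22 was -0.73 ± 0.227 (SE; adjusted p = 0.023, edgeR quasi-likelihood test). Without RP22 replicate 1 it was -0.42 (adjusted p = 0.036), and the call was lost without AA147 replicate 2 (adjusted p = 0.087) or AA147 replicate 3 (adjusted p = 0.077).

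Without RP22 replicate 1, the library that stood apart, the log2 fold changes for AA147 over RP22 were 2.44 for ME1, 2.11 for NQO1, 1.98 for OSGIN1, 1.59 for SRXN1, 1.30 for TXNRD1 and 1.08 for GCLM. HMOX1 was at -1.88 and GCLC at -0.10. The calls of these 8 members were the same as with all libraries. RP22 replicate 1 was the highest RP22 library for 5 members and the lowest for 3, so its distance from the others had no common direction in this list.

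**Figure D2:**
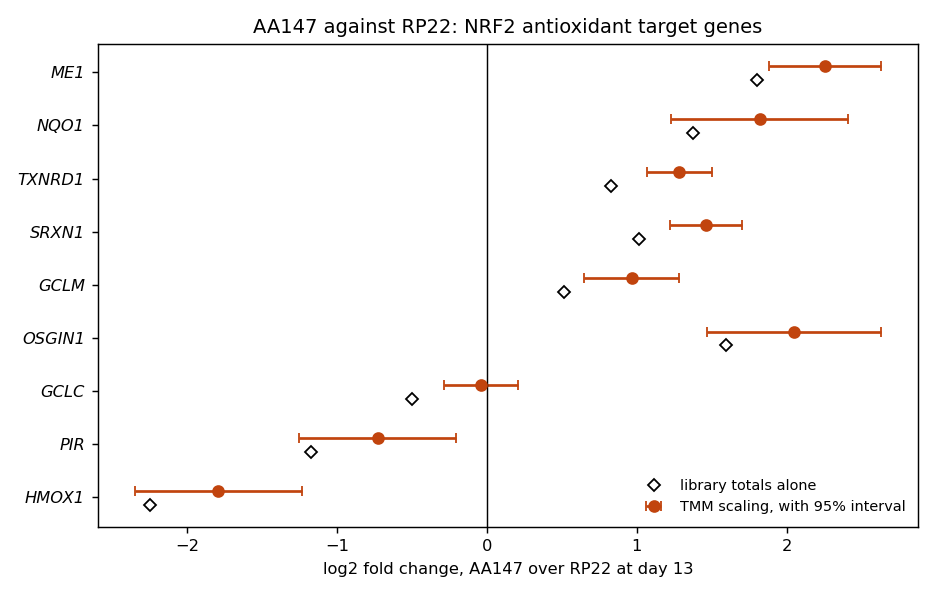
Log2 fold change of AA147 over RP22 at day 13 (horizontal axis) for each member. Filled points with bars give TMM scaling and its 95% interval, and open diamonds give scaling by library totals alone, which moved each member downward by about the same amount; ME1 is highest at 2.25 and HMOX1 lowest at -1.79 with TMM.

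Markers of cell types moved between the same groups, where 29.8% of all genes tested rose and 32.2% fell with AA147 over RP22. With AA147 over RP22, 6 of 7 markers of mesenchyme and smooth muscle rose and none fell, and 4 of 4 epithelial markers rose, at 5794 to 6095 CPM summed with AA147 and 2217 to 2354 CPM with RP22. All 5 tested pluripotency markers fell, as did 5 of 6 neural markers (PAX6, SOX1, DCX, STMN2 and ELAVL3), which summed to 5.92 to 7.21 CPM with AA147 and 494.5 to 643 CPM with RP22. The other neural marker, TUBB3, held most of the AA147 total of 423 to 467.5 CPM over all 6, against 755 to 1010 CPM with RP22, and was at a log2 fold change of 0.36 (adjusted p = 0.039, edgeR quasi-likelihood test) that turned to -0.10 with library totals alone. The 3 tested endothelial markers fell, at 4.55 to 16.4 CPM summed with AA147, where PECAM1 was at 0, and 73.8 to 142.9 CPM with RP22. The 4 tested hepatic and yolk sac markers fell too, at 0.966 to 3.15 CPM with AA147, where TTR was at 0, and 81.3 to 134 CPM with RP22. The 6 markers of macrophages and blood summed to 1.76 to 2.36 CPM with AA147, with PTPRC, SPI1, HBZ and HBE1 at 0, and to 2.93 to 3.64 CPM with RP22, with HBZ at 0. The part of these markers in the members' values was not tested.

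Several members have a paralog with a related enzyme activity. Of 6 such paralogs, 3 rose (ME3, OSGIN2 and HMOX2) and 1 fell (ME2) with AA147 over RP22, where 29.8% of all genes rose and 32.2% fell. With library totals alone 1 paralog rose and 2 fell, where 13.3% of all genes rose and 59.7% fell. HMOX2, the constitutive haem oxygenase, had 40.9, 50.5 and 45.5 CPM with AA147 and 28.7, 27.1 and 22.25 CPM with RP22. Its log2 fold change was 0.73 (adjusted p = 0.0011), opposite in sign to HMOX1, and 0.28 with library totals alone (adjusted p = 0.053, both edgeR quasi-likelihood tests). NQO2 was at -0.17 (adjusted p = 0.25), ME2, the mitochondrial malic enzyme that uses NAD, at -0.21 (adjusted p = 0.046), and TXNRD2, the mitochondrial thioredoxin reductase, at 0.49 (adjusted p = 0.14). ME3 was at 1.03 (adjusted p = 0.0083; 0.57 and 0.076 with library totals alone) and OSGIN2 at 0.90 (adjusted p = 0.00013).

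Within libraries, the RPKM ratio of ME1 to ME2 was 3.95, 4.98 and 5.21 with AA147, 1.06, 0.721 and 0.789 with RP22 and 0.30, 0.474 and 0.470 at day 1. The ratio of NQO1 to NQO2 was 2.36, 3.0 and 1.91 with AA147, 1.16, 0.639 and 0.737 with RP22 and 0.712, 0.883 and 0.940 at day 1. The ratio of HMOX1 to HMOX2 was 0.182, 0.0867 and 0.106 with AA147, 0.501, 0.606 and 0.986 with RP22 and 0.551, 1.33 and 1.07 at day 1. These 3 ratios, and those of TXNRD1 to TXNRD2 and OSGIN1 to OSGIN2, did not overlap between AA147 and RP22. With 3 against 3 libraries, such a separation by itself sets p at 0.1 in the exact two-sided permutation test. Among single genes, 70.5% of all tested did not overlap, and the share among other gene pairs was not computed. NQO1 and NQO2 both fell with RP22 against day 1, at log2 fold changes of -2.18 and -2.16, and their ratio with RP22 overlapped that of day 1.

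**Figure D3:**
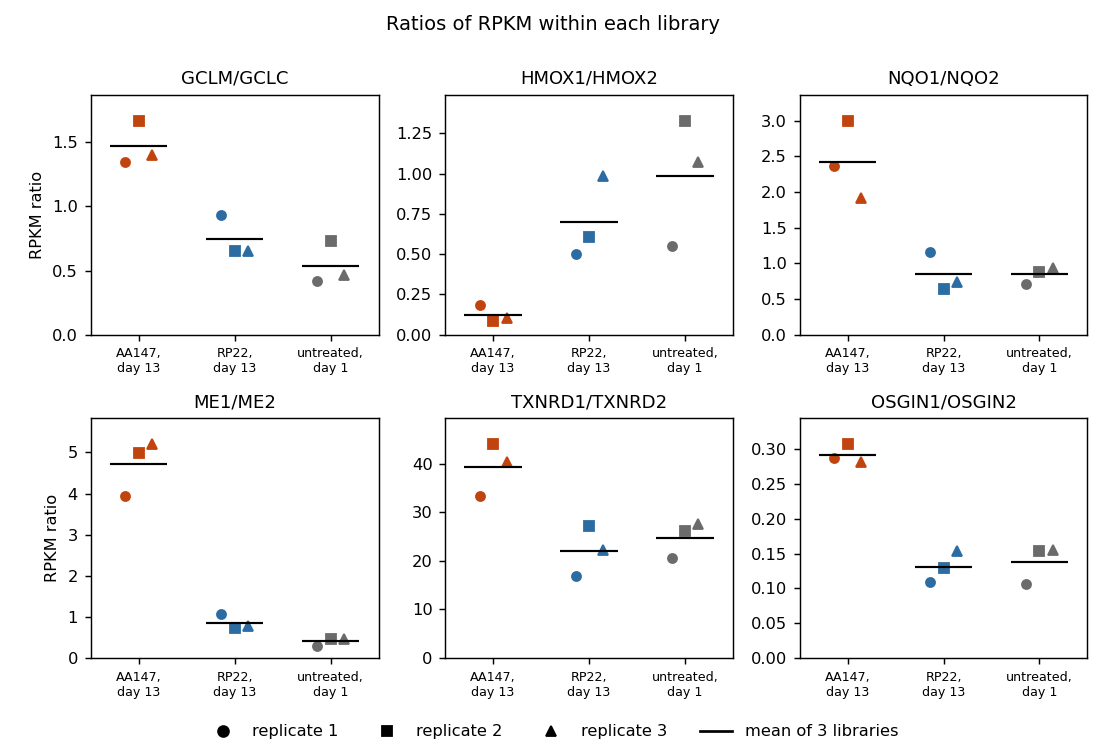
RPKM ratios within each library (vertical axes, linear, from 0) for GCLM to GCLC and for 5 members to a paralog, by group, with the mean as a line and the replicate number as marker shape. The AA147 libraries lie above all RP22 libraries in 5 ratios and under them for HMOX1 to HMOX2.

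Levels of different genes were compared per length, in RPKM. With AA147, TXNRD1 had the highest mean at 70.8 RPKM, followed by ME1 (36.2 RPKM), NQO1 (29.9 RPKM) and SRXN1 (29.1 RPKM), whose neighbouring ranges overlapped. GCLM (11.8 RPKM), GCLC (7.99 RPKM) and PIR (5.72 RPKM) came next without overlap, and OSGIN1 (2.51 RPKM) and HMOX1 (2.45 RPKM) were lowest and overlapped. With RP22, TXNRD1 led at 38.4 RPKM and OSGIN1 was last at 0.821 RPKM. The 7 members between them had means of 8.26 to 14.4 RPKM, and each overlapped its neighbour in the order. At day 1, TXNRD1 (71.4 RPKM) and NQO1 (49.7 RPKM) led without overlap. PIR (25.9 RPKM), GCLC (23.6 RPKM), HMOX1 (21.8 RPKM), SRXN1 (15.95 RPKM), GCLM (12.8 RPKM) and ME1 (9.01 RPKM) then followed, each overlapping the next, and OSGIN1 was lowest at 1.23 RPKM. ME1 thus ranked the second with AA147, the seventh with RP22 and the eighth at day 1, while HMOX1 was last with AA147 and the fifth in both other groups.

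The comparison of RP22 at day 13 with day 1 describes differentiation without the activator, and that of AA147 with day 1 describes differentiation with it. Both use the same 3 day 1 libraries, so their values are given side by side. Against day 1, 5 members fell with RP22 (NQO1, GCLC, PIR, TXNRD1 and GCLM) and 0 rose, where 71.9% of all genes passed, 36.6% upward and 35.2% downward. With AA147, 4 members rose (ME1, OSGIN1, SRXN1 and, under TMM but not under library totals, TXNRD1) and 3 fell (HMOX1, PIR and GCLC), where 79.1% of all genes passed, 38.7% upward and 40.4% downward. No member was higher with RP22 than at day 1 at an unadjusted p under 0.05 in edgeR, nor by DESeq2 or limma. The members' median log2 fold change against day 1 was 0.32 with AA147 and -0.99 with RP22, beside -0.04 and 0.02 over all genes. Library totals alone turned the sign of the AA147 median, to -0.12, with all genes at -0.48, and 34.3% of the AA147 calls were then upward in place of 48.9%.

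ME1, OSGIN1 and SRXN1 rose over day 1 with AA147. ME1 was at 2.45 ± 0.174 (log2 fold change ± SE; adjusted p = 2.9e-06) with AA147 and at 0.11 with RP22 (95% interval -0.35 to 0.57, adjusted p = 0.63, edgeR quasi-likelihood test). OSGIN1 was at 1.42 (adjusted p = 0.00062) with AA147 and at -0.71 (adjusted p = 0.058) with RP22, and SRXN1 at 1.31 (adjusted p = 0.00012) with AA147 and at -0.24 (adjusted p = 0.30) with RP22.

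NQO1, TXNRD1 and GCLM fell over differentiation with RP22. NQO1 was at -0.28 (adjusted p = 0.21) with AA147 and at -2.18 (adjusted p = 0.00022) with RP22. TXNRD1 was at 0.38 (adjusted p = 0.0031) with AA147 and at -0.99 (adjusted p = 1.3e-05) with RP22, and its AA147 value against day 1 turned to -0.06 (adjusted p = 0.49) with library totals alone. GCLM was at 0.32 (adjusted p = 0.24) with AA147, and at -0.12 with library totals alone, and at -0.73 (adjusted p = 0.022) with RP22. With library totals alone NQO1 passed as lower with AA147 than at day 1, at -0.71 (adjusted p = 0.0083).

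GCLC and PIR fell with both compounds, and HMOX1 fell with AA147. GCLC was at -1.13 (adjusted p = 2.8e-06) with AA147 and at -1.17 (adjusted p = 2.2e-05) with RP22. PIR was at -1.78 (adjusted p = 8.6e-07) with AA147 and at -1.14 (adjusted p = 0.0014) with RP22. HMOX1 was at -2.72 ± 0.458 (SE; adjusted p = 0.0012) with AA147 and at -1.01 (adjusted p = 0.060) with RP22.

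**Figure D4:**
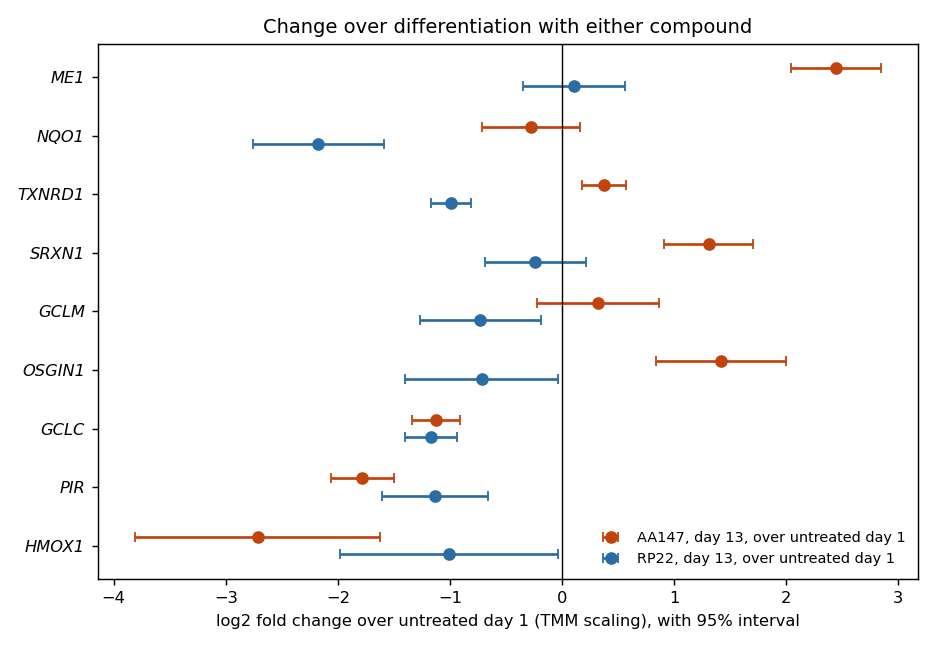
Log2 fold change over untreated day 1 (horizontal axis, TMM scaling) with its 95% interval, for AA147 and RP22 at day 13; both compounds are set against the same 3 day 1 libraries. GCLC lies at about the same place for both (-1.13 with AA147 and -1.17 with RP22), while ME1 lies at 2.45 with AA147 and 0.11 with RP22.

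Several of these calls changed when 1 library of day 1 or RP22 was left out. Day 1 replicate 1 was the lowest of its group for 8 of the 9 members, and day 1 replicate 2 the highest for 8. Without day 1 replicate 1, 8 members were lower with RP22 than at day 1 in place of 5, since HMOX1 (adjusted p = 0.00053), SRXN1 (adjusted p = 0.026) and OSGIN1 (adjusted p = 0.039) then passed, and NQO1 passed as lower with AA147 (adjusted p = 0.032). Among all genes, 5129 (35.2%) were lower with RP22 than at day 1 in the main fit, and 4702 to 5195 with 1 library left out. The fall of GCLM with RP22 did not pass without RP22 replicate 2 (adjusted p = 0.061) or RP22 replicate 3 (adjusted p = 0.076), and GCLM passed as higher with AA147 than at day 1, at 0.61, without day 1 replicate 2 (adjusted p = 0.0071).

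The machinery that acts on NRF2 was listed apart from its targets. Of 14 regulators, 8 rose and 1 fell with AA147 over RP22, with a median log2 fold change of 0.33. With library totals alone 4 rose and 7 fell, with a median of -0.13. The shares of all genes tested were 29.8% upward and 32.2% downward with TMM, and 13.3% and 59.7% with library totals alone. NFE2L2 itself had 132, 161 and 150.1 CPM with AA147, 87.5, 67.0 and 73.3 CPM with RP22 and 60.7, 80.6 and 68.5 CPM at day 1. Its AA147 values stood above all others, and RP22 overlapped day 1. The log2 fold change of NFE2L2 for AA147 over RP22 was 0.88 ± 0.112 (SE; adjusted p = 0.00034), and 0.43 with library totals alone (adjusted p = 0.0049, both edgeR quasi-likelihood tests). SQSTM1, the autophagy receptor p62 that binds KEAP1 and is itself an NRF2 target, had 325, 362 and 344 CPM with AA147, 132, 122 and 110.4 CPM with RP22 and 269, 551 and 509.9 CPM at day 1. Its log2 fold change for AA147 over RP22 was 1.42 ± 0.0813 (SE; adjusted p = 1e-05, edgeR quasi-likelihood test).

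KEAP1, the inhibitor, had 51.1, 51.6 and 51.8 CPM with AA147, 41.1, 35.9 and 33.9 CPM with RP22 and 88.8, 123 and 117 CPM at day 1. It was at 0.40 (adjusted p = 0.0050) for AA147 over RP22, a value that turned to -0.05 (adjusted p = 0.57) with library totals alone, and it fell against day 1 with both compounds, by 1.09 with AA147 and by 1.57 with RP22 in log2. BACH1, the repressor, had 102.0, 112 and 109 CPM with AA147, 103, 87.0 and 86.6 CPM with RP22 and 69.1, 76.4 and 67.7 CPM at day 1. The AA147 and RP22 values of BACH1 overlapped, at a log2 fold change of 0.15 (adjusted p = 0.17) that turned to -0.31 (adjusted p = 0.0058) with library totals alone. BACH2 was at -0.28 (adjusted p = 0.075), and at -0.73 (adjusted p = 0.00078) with library totals alone.

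Of the small MAF partners, MAFG rose by 0.98 (adjusted p = 0.00013), MAFF by 0.60 (adjusted p = 0.022) and MAFK by 0.51 (adjusted p = 0.0020) in log2 with AA147 over RP22. With library totals alone MAFG still passed, while MAFF was at 0.14 (adjusted p = 0.51) and MAFK at 0.05 (adjusted p = 0.62). NFE2L1, a relative of NRF2 that governs proteasome genes, rose by 0.96 (adjusted p = 2.1e-05), and NFE2L3, another relative, fell by 0.64 (adjusted p = 0.028, edgeR quasi-likelihood test). GSK3B, a kinase that marks NRF2 for degradation, was at 0.25 (adjusted p = 0.0073) and turned to -0.21 (adjusted p = 0.021) with library totals alone. The ligase subunits CUL3 (0.05), RBX1 (0.21) and BTRC (0.03) did not pass, and each turned negative with library totals alone.

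**Figure D5:**
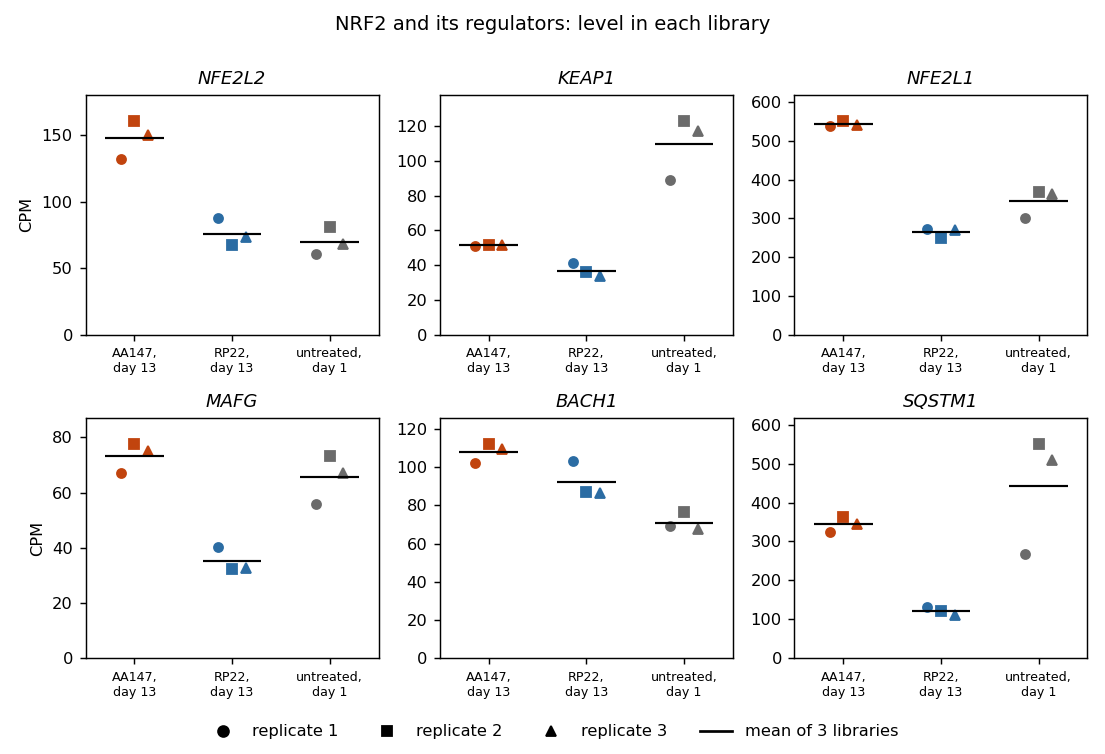
Level in CPM (vertical axes, linear, from 0) of NFE2L2, KEAP1, NFE2L1, MAFG, BACH1 and SQSTM1 in each library, by group, with the mean as a line and the replicate number as marker shape. NFE2L2 was higher in all 3 AA147 libraries (132 to 161 CPM) than in all others, KEAP1 was highest at day 1 (88.8 to 123 CPM), and BACH1 overlapped between AA147 and RP22.

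Other genes of the same pathways gave mixed counts with AA147 over RP22. For all of these lists, the shares to set beside them are 29.8% of all genes rising and 32.2% falling. Under library totals alone these shares were 13.3% and 59.7%. Of 16 tested glutathione genes, 10 rose and 3 fell, with a median log2 fold change of 0.49, and with library totals alone 5 rose and 3 fell. GLRX, glutaredoxin, was at 1.30 and CHAC1, which degrades glutathione, at 1.16 (adjusted p = 0.048, and 0.18 with library totals alone), while GSTA4, a glutathione transferase, was at -1.56 and GGT1, which cleaves glutathione outside the cell, at -1.40. Of 12 thioredoxin and peroxiredoxin genes, 6 rose and 1 fell, and with library totals alone 4 rose and 5 fell. The named ones were MSRB3, a methionine sulfoxide reductase, at 2.33, and the peroxiredoxins PRDX4, PRDX5 and PRDX6 at 0.78, 0.75 and 0.71.

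Of 10 genes of NADPH supply, 4 rose and 2 fell, and with library totals alone 2 rose and 4 fell. Of the pentose phosphate pathway, TKT was at 0.74, PGLS at 0.67 and TALDO1 at 0.54, and TALDO1 did not pass with library totals alone. ME1 at 2.25 lay well above them. Of 10 genes of iron and haem handling, 5 rose and 2 fell, and with library totals alone 3 rose and 4 fell. FTL, the ferritin light chain, rose by 1.52 and BLVRB, a biliverdin reductase, by 1.09, while the transferrin receptor TFRC was at -1.28 and the iron exporter SLC40A1 at -1.93 (adjusted p = 0.046). HMOX1, at -1.79, fell by more than TFRC and by less than SLC40A1 in these estimates.

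Of 15 tested genes of detoxification and export, 8 fell and 4 rose, and with library totals alone 10 fell and 3 rose. The exporter ABCC2 was at -2.55 and the aldehyde dehydrogenase ALDH3A2 at -1.37, while the epoxide hydrolase EPHX1 was at 1.06 and TRIM16 at 1.05. Of 6 tested genes of superoxide and peroxide handling, 3 rose and 2 fell, and with library totals alone 1 rose and 3 fell. NOX4, an oxidase that makes hydrogen peroxide, was at 2.32, catalase (CAT) at -0.66, SOD2, the mitochondrial superoxide dismutase, at -0.50, and CYBA, a partner of NOX4, at 0.41, which turned to -0.04 with library totals alone. TRIM16, GGT1 and FTL have near-identical copies, so their counts are uncertain.

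The genes whose log2 CPM ran most like a member's over the 9 libraries were named for each member, out of 13410 genes tested in all comparisons. Pearson's r was 0.981 to 0.999, and since the 9 libraries form 3 groups that many genes separate, these values are a description. ME1 was nearest to OST4 and PPP2CB, NQO1 to FTL and RRAGC, TXNRD1 to ZFAND5 and TDG, and SRXN1 to PFDN1 and VPS37A. OSGIN1 was nearest to OCIAD2 and CDR2, GCLM to MRPL53 and MFN2, GCLC to RPL14 and YWHAE, PIR to FAHD2B and HSD17B14, and HMOX1 to ERF and ING1. No member was among the 2 nearest genes of another.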

How the data were processed

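For the 9 libraries the authors deposited expected counts per gene and, in a second table, RPKM, which divides reads by gene length and library total. Per the submitters' processing notes the reference was GRCh37.p13. Neither the aligner nor the counter is given in the sources used here. In the deposited expected counts 41.4% of the cells held a floor of 0.05, read here as 0, 0.914% held fractions, which were rounded (none in the members), and 42 symbols on 2 rows were summed. The length implied by count and deposited RPKM varied between libraries by up to 12.1% for a member (OSGIN1, then TXNRD1 at 11.7%), so RPKM ratios with these genes carry that uncertainty.

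Counts were fitted in R 4.3.3 with edgeR 4.0.16 (filterByExpr, TMM, robust quasi-likelihood F test), for each comparison separately (6 libraries, no covariate), and p-values were adjusted by Benjamini-Hochberg over all genes tested with a threshold of 0.05. All 9 members passed the count filter. Biological coefficients of variation were 15.4% for AA147 against RP22, 15.6% for RP22 against day 1 and 12.3% for AA147 against day 1. The SE is the absolute log2 fold change divided by the square root of F. CPM was scaled by TMM over the 9 libraries. RPKM was used for levels between genes and for ratios within a library. The procedure was run on simulated counts in which only a small part of the genes was changed, unlike in these data. That run therefore does not test the choice of scaling. Alternatives used DESeq2 1.42.0, limma 3.58.1 on log2(RPKM + 0.1) and log2(RPKM + 1), other scalings, no filter, 1 fit of all libraries, a replicate block and libraries left out.

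The labels number the replicates within groups but do not say that a number is shared, and the correlation of deviations between libraries of the same number was 0.0746 to 0.214 for AA147 and RP22 and -0.0678 to 0.0574 in the comparisons with day 1, so no pairing was assumed. The genes named are all members, all listed regulators and paralogs, up to 4 genes of each other list past the test for AA147 against RP22 with groups that did not overlap and at least 5 CPM, HSPA5, and the 2 genes most like each member. A gene that meets this rule is not reported here. The members, lists and rules were chosen with earlier results of these data known. Promoters were read from RefSeq windows (GRCh38.p14), with entries for 8 of the 9 members.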

Additional observations from a re-analysis of the deposited data

How the results depend on the processing

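The counts of members called with AA147 over RP22 were 6 higher and 2 lower. Scaling by library totals, also built into RPKM, shifted all genes downward with AA147. Higher and lower counts over all genes, 4264 and 4600 with TMM, became 1897 and 8527 with library totals, 1910 and 9201 with limma on log2(RPKM + 0.1), 1883 and 9404 with the same limma fit without its filter, and 1902 and 9078 with limma on log2(RPKM + 1). Without the count filter edgeR gave 4319 and 4931. In 1 fit of all libraries, more genes were higher than lower, at counts of 4773 and 4321. With 1 library left out they were 3754 to 4616 higher and 3769 to 4831 lower, and the members lower were 1 to 2, with 1 without AA147 replicate 2 or 3. For RP22 against day 1 the members lower were 4 to 8 with 1 library left out, and 8 without replicate 1 of both groups. For AA147 against day 1 the members were 4 to 5 higher and 3 to 4 lower. Against day 1 the counts over all genes ranged over 4884 to 5420 higher and 4702 to 5195 lower with RP22, and 5103 to 5447 higher and 5244 to 5582 lower with AA147.

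Signs turned for small values. With AA147 over RP22, under library totals, limma on log2(RPKM + 0.1) and limma on log2(RPKM + 1) (log2(RPKM + 0.1) with and without filter alike), KEAP1 gave -0.053, -0.057 and -0.054, CUL3 -0.406, -0.401 and -0.394, RBX1 -0.247, -0.245 and -0.241, BACH1 -0.306, -0.304 and -0.288, GSK3B -0.205, -0.203 and -0.194, BTRC -0.427, -0.422 and -0.39, and CYBA -0.037, -0.049 and -0.048. With AA147 against day 1, GCLM gave -0.12, -0.077 and -0.074, and TXNRD1 -0.064, -0.013 and -0.013. GCLC with AA147 over RP22 was 0.04 in 1 fit of all libraries and -0.097 to 0.049 with 1 library left out, and BTRC was then -0.018 to 0.081. ME1 with RP22 against day 1 was -0.231 without replicate 1 of both groups and -0.067 to 0.247 with 1 library left out. Apart from the scaling, the cause was not tested.

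With the replicate number as a block, genes higher and lower were 4126 and 4551 for AA147 over RP22, 5168 and 4957 for RP22 against day 1, and 5309 and 5507 for AA147 against day 1. Under the block HMOX1 passed as lower with RP22 than at day 1 (adjusted p = 0.028) and GCLM as higher with AA147 than at day 1 (adjusted p = 0.022), and no other member's call changed. HMOX1 also passed for RP22 against day 1 with DESeq2 (adjusted p = 0.0075). OSGIN1, the member with the fewest reads over all libraries, and HMOX1 with AA147 are the values that depth limits most.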

Other observations

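Against day 1, the other pathway genes were counted by list, as genes past the adjusted threshold in the edgeR quasi-likelihood test. Both comparisons share the day 1 libraries. Among all genes tested, 38.7% rose and 40.4% fell with AA147, and 36.6% rose and 35.2% fell with RP22. Under library totals alone, 3866 of 13761 rose and 7416 fell with AA147, and 5820 of 14559 rose and 4568 fell with RP22. Of 16 glutathione genes, 4 rose and 7 fell with AA147, and 4 rose and 10 fell with RP22. Under library totals alone 4 rose and 12 fell with AA147. GLRX, glutaredoxin, was at a log2 fold change of 3.25 with AA147 and 1.87 with RP22. Of 10 genes of NADPH supply, 4 rose and 5 fell with AA147, and 2 rose and 7 fell with RP22. With library totals alone 2 rose and 6 fell with AA147, and 2 rose and 6 fell with RP22. TKT, transketolase, was at -0.80 with AA147 and -1.62 with RP22, and TALDO1, transaldolase, at -0.62 with AA147 and -1.24 with RP22. Of 12 thioredoxin and peroxiredoxin genes, 6 rose and 5 fell with AA147, and 2 rose and 6 fell with RP22. Scaled by library totals alone, 3 rose and 6 fell with each compound. In iron and haem handling, 5 of 10 genes rose and 4 fell with AA147, and 2 rose and 5 fell with RP22. Library totals alone gave 2 and 5 with AA147, and 3 and 4 with RP22. FTL, the ferritin light chain, was at -0.41 with AA147 and -2.01 with RP22. In detoxification and export, 5 of 12 tested genes rose and 5 fell with AA147, and 7 of 15 rose and 4 fell with RP22. Library totals alone gave 4 and 6 with AA147, and 8 and 4 with RP22. In superoxide and peroxide handling, 2 of 6 tested genes rose and 2 fell with each compound. Library totals alone gave 1 and 3 with AA147. NOX4, which makes hydrogen peroxide, was at 6.34 with AA147 and 3.95 with RP22. Its day 1 libraries held only 19, 4 and 7 reads.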
